A study of Homo sapiens with 4 samples.

Results

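The cytosolic heat shock proteins described here were 10 genes chosen by name, and all 10 were found among the 16834 genes of the expression table. They were the inducible Hsp70 genes HSPA1A and HSPA1B, the constitutive Hsp70 gene HSPA8, the J-domain genes DNAJB1 and DNAJA1, the Hsp110 gene HSPH1, the co-chaperone gene BAG3, the small heat shock gene HSPB1, and the Hsp90 genes HSP90AA1 and HSP90AB1. The study asked how neobractatin (NBT, a natural product of Garcinia bracteata) and trametinib (an inhibitor of the kinase MEK) act together on pancreatic ductal adenocarcinoma cells. Cells labelled MIA PaCa-2, wild type in the labels, were cultured for 12 h as control, with 1 µM NBT, with 5 µM trametinib, or with both drugs at these doses (the combination), and RNA of each condition was sequenced as 1 library. What the control cells were given in place of the drugs is not given in the sources used here.

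Hsp70 proteins bind unfolded stretches of other proteins and release them in cycles driven by ATP. J-domain proteins start the cycle and hand over substrates, and Hsp110 and BAG proteins end it by exchanging the nucleotide. Small heat shock proteins hold unfolding proteins without ATP, and Hsp90 completes the folding of many kinases and receptors. When unfolded protein gathers in the cytosol, the transcription factor HSF1 is released from chaperones and binds heat shock elements, repeats of the unit GAA in alternating orientation, upstream of these genes.

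The estimated reads of HSPA1A, HSPA1B, HSPH1, DNAJB1 and HSP90AA1 were not whole numbers, so part of their reads had been divided with other genes. Division between the transcripts of 1 gene leaves its total whole, as in BAG3. All estimated reads summed to between 18776212 and 19614763 in the 4 libraries. With 1 library a condition, a difference between libraries holds any variation from culture to culture, for which there is no estimate, and no p-value is given. The 95% intervals printed below are exact intervals of the ratio of the rounded read counts and allow for counting error only. They leave out the division of reads between genes. Reads copied by PCR are not independent molecules, so the intervals may be too narrow. Fewer cells of a kind and less RNA per cell cannot be told apart in such bulk libraries. The MEK label was met by the data: DUSP6, a phosphatase gene switched on by MEK signalling, had 329 reads in the control, 521 under NBT, 14 under trametinib and 9 under the combination, and all 10 genes of a MAPK output list were lower in both trametinib libraries.

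The cell line label was not met by all markers. MIA PaCa-2 is known for a homozygous deletion of CDKN2A, a cell cycle inhibitor gene, and as a line with little E-cadherin and much vimentin. CDKN2A nevertheless had 2643 reads in the control, 2674 under NBT, 3524 under trametinib and 3187 under the combination, and its neighbour MTAP, looked up after these values were seen, had between 815 and 1151. The E-cadherin gene CDH1 was at 51.2 to 86.9 TPM (transcript abundance scaled to gene length and depth) and EPCAM at 209 to 242 TPM, whereas VIM, the vimentin gene, was at 11.5 to 26.4 TPM. The epithelial keratin gene KRT8 was at 3799 TPM in the control, 3151 under NBT, 2216 under trametinib and 1493 under the combination, and KRT18 was at 3142, 2694, 1048 and 995 TPM in the same order. KRT18 fell by 1.56 under trametinib and by 1.62 under the combination on the log2 scale, and KRT8 fell by 1.31 under the combination, in libraries in which heat shock genes rose, and their part in that rise was not tested. KRT19 was not listed. Of 5 acinar and islet markers only CPA1 was listed, with at most 1 read. Of 8 leukocyte, endothelial and fibroblast markers, COL3A1 and DCN were not listed, CD68 had 1503 to 2400 reads, and the other 5 had at most 98. Of these 5, CD3E had 0 reads in the control and under NBT, 55 under trametinib and 29 under the combination, VWF had 3, 4, 25 and 6 in the same order, and COL1A1 had 45, 27, 98 and 53. CD3E passed the limits given below in both libraries with trametinib, VWF and COL1A1 in the one with trametinib alone, and their part in the rise of HSPB1 in those libraries was not tested. The labels' cell line entries also differ between the libraries, so "MIA PaCa-2" below stands for the cells so labelled, and the same limit applies to every comparison.

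Heat shock elements were looked for in the 250 bases before each start site that RefSeq gives (GRCh38.p14, with 15 windows for the 10 genes), because these are the letters that HSF1 binds. The motifs searched were GAANNTTC and TTCNNGAA, which hold a pair of units, and GAANNTTCNNGAA and TTCNNGAANNTTC, which hold 3 units and include the shorter ones, and this covers both strands. A match of at least 2 units was found in 8 of these 15 windows, 1 for each of 8 genes, and in 11.6% of all 35116 windows. A match of 3 units was found in 3 of the 15 windows, upstream of HSPA8, HSP90AA1 and HSP90AB1, and in 0.441% of all windows. No window of HSPH1 or BAG3 held these letters. Only exact units at this spacing were searched, so an element with other letters would have been missed in any gene. The runs below are those of the 3 genes of the 10 that rose past the limits given below, and all runs with 3 units in the 15 windows. They are on the strand of the gene, with the matched letters in capitals. A match describes the letters only.
HSPA1A, chr6:31815429-31815452, plus strand, upstream of the gene: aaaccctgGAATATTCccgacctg
HSPA1B, chr6:31827625-31827648, plus strand, upstream of the gene: aacccctgGAATATTCccgacctg
HSPB1, chr7:76302483-76302506, plus strand, upstream of the gene: taacgagaGAAGGTTCcagatgag
HSPA8, chr11:123062346-123062374, minus strand, in an intron of a longer GENCODE transcript: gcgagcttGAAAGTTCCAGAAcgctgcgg
HSPA8, chr11:123062171-123062199, minus strand, in an exon of a longer GENCODE transcript: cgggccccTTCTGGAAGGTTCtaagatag
HSP90AA1, chr14:102087104-102087133, minus strand, in an exon of a longer GENCODE transcript: cTTCCGGAAGGTTCgggaggcTTCTGGAAa
HSP90AB1, chr6:44247770-44247798, plus strand, in an intron of a longer GENCODE transcript: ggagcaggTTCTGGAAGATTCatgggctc
HSP90AB1, chr6:44247823-44247851, plus strand, in an intron of a longer GENCODE transcript: tgagattgTTCTGGAAGCTTCtggattct
Of the 10 genes, the 3 that rose past the limits given below, HSPA1A, HSPA1B and HSPB1, carried a match of 2 units only. Those of the 10 with 3 units were the 3 most abundant in the control. HSPA6, outside the 10, held 3 units and rose under the combination at few reads, as given below.

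Under the combination, 3 of the 10 genes rose past the limits used here. These were the study's, a false discovery rate of at most 0.05 and an absolute log2 fold change of at least 1, applied to a two-sided, exact binomial comparison of a pair of libraries in place of the study's PossionDis. They were HSPA1A, HSPA1B and HSPB1, and the other 7 genes lay between -0.14 and 0.49 on the log2 scale. HSPA1A and HSPA1B have nearly the same coding sequence, as given below, so they are not separate observations in this and the later counts. Of all genes tested, 8.42% passed in either direction and 4.73% were higher. Under NBT alone 0 of the 10 genes passed, beside 2.61% of all genes in either direction and 1.6% higher. Under trametinib alone HSPB1 passed, beside 5.96% in either direction and 3.82% higher. Without the log2 limit, so that only counting error was allowed for, 7 genes were higher and 1 lower under NBT (35.5% of all genes in either direction), 4 higher and 4 lower under trametinib (42.7%), and 9 higher and 1 lower under the combination (49.6%). HSPH1 was the gene that was lower under NBT and under the combination. The 10 genes had a median log2 fold change of 0.11 under NBT, -0.02 under trametinib and 0.31 under the combination, beside -0.01, 0.08 and 0.05 for all genes tested. These 3 comparisons share the control library. With HSPA1A and HSPA1B summed as 1 gene, the median under the combination was 0.22. In edgeR's exact test with the coefficient of variation between cultures set to 0.2, HSPB1 still passed under trametinib (2.25% of all genes tested) and the 3 genes under the combination (3.37%). With 0.4 none of the 10 genes passed in any comparison, beside 0.136% of all genes under trametinib and 0.314% under the combination.

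**Figure D1:**
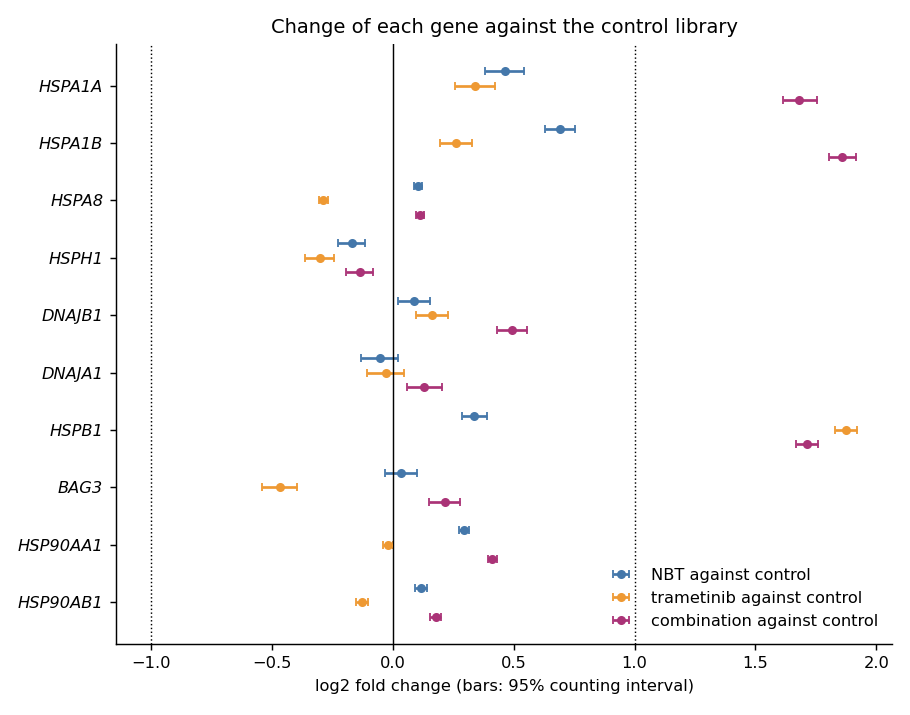
Log2 fold change of each of the 10 heat shock genes against the control library (x axis), with 95% counting intervals as bars and dotted lines at the limits of -1 and 1. HSPA1A, HSPA1B and HSPB1 lie beyond 1 under the combination, and HSPB1 alone lies beyond 1 under trametinib.

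The inducible Hsp70 genes, which most unstressed cells hold at a low level, were highest in the combination library. They were not low in the control, where HSPA1A was at 93.4 TPM, above 89.2% of all genes. HSPA1B was at 137 TPM there, above 92.7%. HSPA1A (NCBI Gene 3303, chr6:31815543-31817942, plus strand, GRCh38) had an estimated 2118 reads in the control, 3021 under NBT, 2707 under trametinib and 7103 under the combination. HSPA1B (NCBI Gene 3304, chr6:31827738-31830254, plus strand) had 3273, 5472, 3961 and 12405 reads in the same order. Both genes thus had the order control, trametinib, NBT and combination, with a small step to each single drug and a larger one to both.

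HSPA1A was 1.38-fold higher under NBT (log2 fold change 0.46, interval 0.38 to 0.54) and 1.27-fold higher under trametinib (0.34, 0.26 to 0.42), and it rose 3.21-fold under the combination (1.68, 1.61 to 1.75). HSPA1B was 1.61-fold higher under NBT (0.69, 0.63 to 0.75) and 1.2-fold higher under trametinib (0.26, 0.19 to 0.33), and it rose 3.63-fold under the combination (1.86, 1.80 to 1.92). Among 10662 genes with at least 100 reads in 1 library, 98.9% had a lower log2 fold change than HSPA1A under the combination and 99.1% a lower one than HSPA1B. Under NBT alone the shares were 92.8% and 97.0%, and under trametinib alone they were 81.0% and 74.3%.

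The division of reads between the Hsp70 pair is uncertain. Their coding sequences of 1926 bases differed at 4 positions in GENCODE (99.8% identity), and the translated proteins of 641 residues were identical. Of the 2384 windows of 100 bases along the HSPA1A transcript, 69.9% were found letter for letter in HSPA1B, and the estimated reads of both genes were not whole numbers. Their sum does not depend on that division. It was not a whole number in the control either, so some reads of the pair had been divided with other genes. Summed, the pair had 5391 reads in the control, 8493 under NBT, 6668 under trametinib and 19508 under the combination, which was 3.46-fold the control (interval 3.36 to 3.57). The upstream 250 bases of the pair were 93.6% identical and held the same match of 2 units.

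HSPA8 encodes the constitutive Hsp70, which serves protein folding, clathrin uncoating and chaperone-mediated autophagy. The gene (NCBI Gene 3312, chr11:123057489-123062462, minus strand) had 54055 reads in the control, 60179 under NBT, 44716 under trametinib and 61068 under the combination. Its lowest library was trametinib, and the other 3 were close together. The log2 fold change was 0.10 under NBT (0.09 to 0.12), -0.29 under trametinib (-0.31 to -0.27) and 0.11 under the combination (0.10 to 0.13), so it did not pass the limits in any comparison. HSPA8 was the most abundant of the 10 genes by TPM except under trametinib, at 2529.95 TPM in the control, 2599 under NBT, 2038 under trametinib and 2665 under the combination. For every 100 TPM of HSPA8, the inducible pair had 9.13 TPM in the control, 12.9 under NBT, 13.7 under trametinib and 29.2 under the combination. HSPA1A and HSPA8 were 85.6% identical in protein and 74.3% in coding sequence, in which they shared no run longer than 23 bases.

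**Figure D2:**
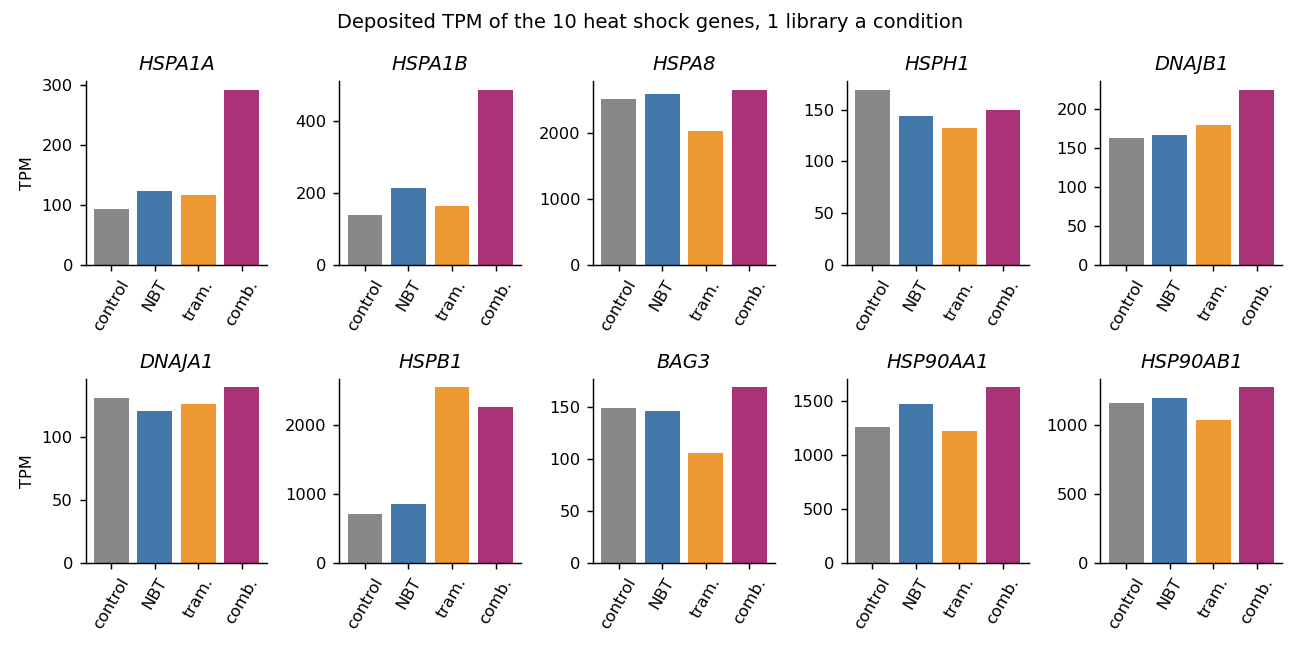
TPM (y axis, from 0, a scale for each gene) of the 10 heat shock genes in the control, NBT, trametinib (tram.) and combination (comb.) libraries, 1 bar a library with no replicate. HSPA1A and HSPA1B stand out in the combination library, at 292 and 486 TPM, HSPB1 stands at 2539 TPM under trametinib and 2249.6 TPM under the combination, and HSPA8, HSPH1, BAG3, HSP90AA1 and HSP90AB1 are lowest under trametinib.

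The J-domain genes moved less. DNAJB1, the stress-inducible class B partner of Hsp70 that acts in disaggregation, had 3477 reads in the control, 3826 under NBT, 3923 under trametinib and 5115 under the combination (NCBI Gene 3337, chr19:14514769-14560391, minus strand). It was highest in the combination library, at 1.41-fold the control (log2 fold change 0.49, 0.43 to 0.56), below the limit of 1. The log2 fold change was 0.09 under NBT (0.02 to 0.15) and 0.16 under trametinib (0.09 to 0.23). DNAJA1, a class A partner that is made without stress, had 2860 reads in the control, 2851 under NBT, 2827 under trametinib and 3270 under the combination (NCBI Gene 3301, chr9:33025273-33039907, plus strand). The intervals of DNAJA1 reached from -0.13 to 0.02 under NBT and from -0.11 to 0.05 under trametinib, so neither difference could be told from counting error, and under the combination its log2 fold change was 0.13 (0.06 to 0.20). For every 100 TPM of DNAJA1 there were 125 TPM of DNAJB1 in the control, 139 under NBT, 143 under trametinib and 162 under the combination.

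HSPH1, the Hsp110 that exchanges nucleotide on Hsp70, had its highest level in the control. The gene (NCBI Gene 10808, chr13:31134973-31162388, minus strand) had 5317 reads in the control, 4892 under NBT, 4349 under trametinib and 5055 under the combination. All 3 treated libraries were below the control, with log2 fold changes of -0.17 under NBT (-0.23 to -0.11), -0.30 under trametinib (-0.36 to -0.25) and -0.14 under the combination (-0.19 to -0.08). None of these reached the limit of 1. HSPH1 and HSPA1A, both classed as heat-inducible, therefore differed in sign in all 3 comparisons.

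BAG3 links Hsp70 to small heat shock proteins and to selective autophagy of damaged proteins. The gene (NCBI Gene 9531, chr10:119651380-119677819, plus strand) had 3627 reads in the control, 3844 under NBT, 2645 under trametinib and 4398 under the combination. It was lowest under trametinib alone and highest with both drugs. The log2 fold change was 0.03 under NBT (-0.03 to 0.10), -0.47 under trametinib (-0.54 to -0.40) and 0.22 under the combination (0.15 to 0.28). Under trametinib only 8.07% of the 10662 genes had a lower log2 fold change than BAG3. Its estimated reads were divided between 2 RefSeq transcripts, and NM_004281.4 had 79.3% of them in the control, 69.2% under NBT, 72.6% under trametinib and 71.0% under the combination. Both transcripts were lower under trametinib than under the combination, at 1920 against 3124 reads for NM_004281.4 and 725 against 1274 reads for XM_005270287.2.

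HSPB1 encodes Hsp27, a small heat shock protein that also binds actin and is a substrate of MAPK-activated kinases. The gene (NCBI Gene 3315, chr7:76302673-76304292, plus strand) had 4946 reads in the control, 6471 under NBT, 18316 under trametinib and 16947 under the combination. The trametinib and combination libraries were both high, and the NBT library was close to the control. HSPB1 rose 3.67-fold under trametinib (log2 fold change 1.88, 1.83 to 1.92) and 3.28-fold under the combination (1.71, 1.67 to 1.76), and its fold under NBT was 1.26 (0.34, 0.28 to 0.39). Among the 10662 genes, 99.5% had a lower log2 fold change under trametinib.

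The rise of HSPB1 changed its place among the 10 genes. By TPM it had rank 4 in the control and under NBT, at 704 and 850.2 TPM, rank 1 under trametinib, at 2539 TPM, and rank 2 under the combination, at 2249.6 TPM. Its share of the summed TPM of the 10 genes was 10.9% in the control, 12.1% under NBT, 33.2% under trametinib and 24.3% under the combination. The sum itself was 6485 TPM in the control, 7023 under NBT, 7653 under trametinib and 9267 under the combination. Without HSPB1 the other 9 genes summed to 5780.5 TPM in the control, 6173 under NBT, 5114 under trametinib and 7018 under the combination, so the sum under trametinib was above the control with HSPB1 and below it without.

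**Figure D3:**
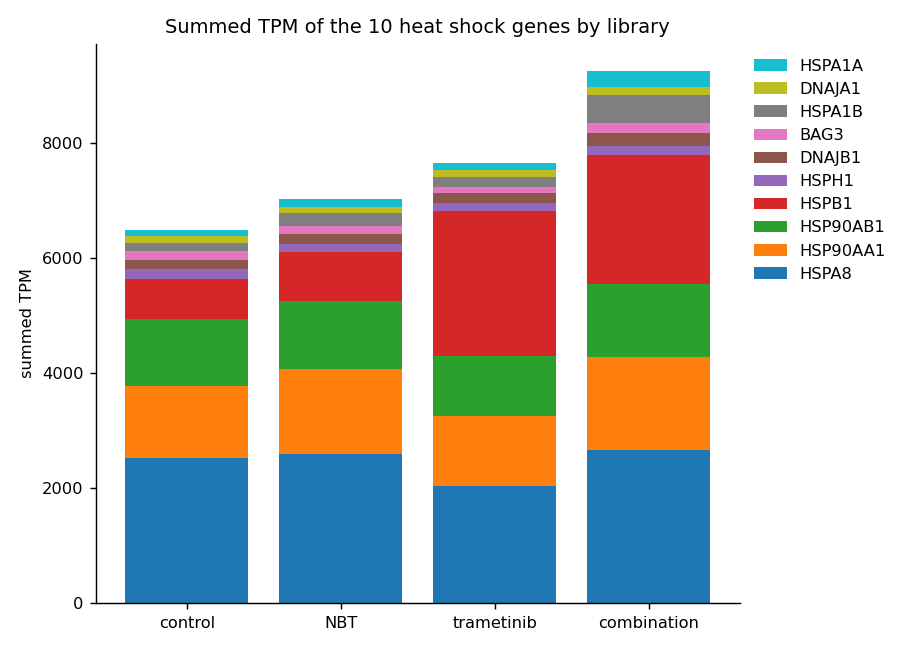
Summed TPM of the 10 heat shock genes in each library (y axis), stacked by gene in the order of their control level. The sum was highest under the combination, at 9267 TPM, and the HSPB1 segment made up 33.2% of it under trametinib and 24.3% under the combination.

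The Hsp90 genes were abundant in all libraries and stayed within the limits. HSP90AA1, the stress-inducible Hsp90 alpha gene, had 38405 reads in the control, 48755 under NBT, 38276 under trametinib and 53338 under the combination (NCBI Gene 3320, chr14:102080742-102139749, minus strand). The 2 libraries under NBT were above those without, with log2 fold changes of 0.29 under NBT (0.27 to 0.31) and 0.41 under the combination (0.39 to 0.43), and -0.02 under trametinib (-0.04 to 0.00). HSP90AB1, the gene of the constitutive Hsp90 beta, had 27924 reads in the control, 31338 under NBT, 25784 under trametinib and 32977 under the combination (NCBI Gene 3326, chr6:44246194-44253883, plus strand). Its log2 fold changes had the same order but were smaller on the NBT side, at 0.12 under NBT (0.09 to 0.14), -0.13 under trametinib (-0.15 to -0.10) and 0.18 under the combination (0.15 to 0.20). HSP90AA1 stood at 108 TPM for every 100 TPM of HSP90AB1 in the control, 123 under NBT, 117 under trametinib and 128 under the combination. One RefSeq transcript held nearly all estimated reads of each gene, at least 98.9% for NM_005348.4 of HSP90AA1 and at least 98.8% for NM_007355.4 of HSP90AB1.

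Whether the second drug changed the level left by the first was read from the combination library against each single-drug library. Against trametinib, HSPA1A and HSPA1B rose past the limits (2 of 10 genes, beside 6.11% of all genes in either direction and 2.56% higher), by 1.34 (1.28 to 1.41) and 1.60 (1.55 to 1.65) on the log2 scale. The next largest log2 fold changes were those of BAG3, at 0.68 (0.61 to 0.75), HSP90AA1, at 0.43 (0.41 to 0.45), and HSPA8, at 0.40 (0.38 to 0.42). HSPB1 was the only one of the 10 genes below its trametinib level, at -0.16 (-0.19 to -0.13). Against NBT, HSPA1A, HSPA1B and HSPB1 rose (3 of 10 genes, beside 4.36% of all genes in either direction and 2.38% higher), with log2 fold changes of 1.22 (1.16 to 1.28), 1.17 (1.12 to 1.21) and 1.38 (1.33 to 1.42). DNAJB1 followed at 0.41, and HSPA8 at 0.01 (-0.01 to 0.02) and HSPH1 at 0.03 (-0.02 to 0.09) could not be told from 0. In edgeR's exact test with the coefficient of variation set to 0.2, the count against NBT was 0 of 10 (1.26% of all genes) and that against trametinib was 1 of 10, HSPA1B (1.85%). With counting error alone, 9 genes were higher and 1 lower against trametinib (45.5% of all genes in either direction), and 8 were higher and 0 lower against NBT (37.4%).

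**Figure D4:**
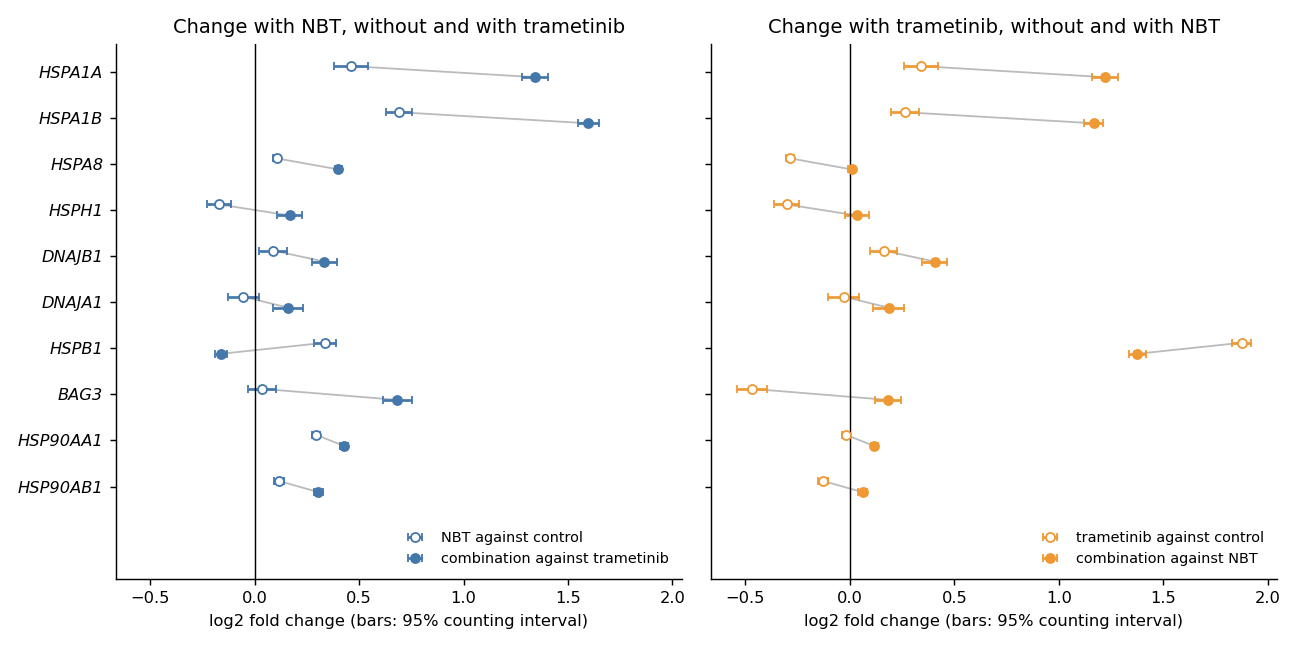
Log2 fold change under NBT (left) and under trametinib (right) for each heat shock gene, without the other drug (open circles) and in its presence (filled circles), with 95% counting intervals. The filled circle lies to the right for all genes except HSPB1, and HSPA1A, HSPA1B and BAG3 are the furthest shifted.

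The combination was also set against the sum of the single-drug log2 fold changes, and the difference is called the departure from additivity. For 9 of the 10 genes the departure was above 0 and its counting interval did not include 0. The share of all genes with such a departure was not counted, so the count of 9 has no background. HSPA1B had a departure of 0.91 (0.82 to 0.99), HSPA1A of 0.88 (0.78 to 0.98) and BAG3 of 0.65 (0.55 to 0.75). In the other 6 it lay between 0.13 for HSP90AA1 and 0.34 for HSPH1. HSPB1 was the exception with -0.50 (-0.56 to -0.44), since its single-drug log2 fold changes summed to 2.21 and the combination reached 1.71. Over 11367 genes with at least 50 reads in 1 library, the median departure was -0.03 and the 5th and 95th percentiles were -0.61 and 0.47. The departures of HSPA1A, HSPA1B and BAG3 were thus above the 95th percentile, and those of the other 6 and of HSPB1 were within the range. No gene of the 10 was among the 265 genes with a departure of at least 1 in size.

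The regulators of the response were near their control levels. HSF1, the main heat shock factor, had 3097 reads in the control, 2745 under NBT, 2850 under trametinib and 2869 under the combination, and its log2 fold changes lay between -0.22 and -0.13. HSF2, which pairs with HSF1 at shared elements, had 347, 357, 424 and 438 reads in the same order, and HSF4, best known from the lens, had 299, 309, 333 and 385. HSBP1, a small protein that binds HSF1 trimers, had between 2283 and 2602 reads. None of the 4 genes passed the limits in any comparison, beside 2.61% to 8.42% of all genes. HSF1 is regulated at the protein level, which RNA does not show.

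The other genes of the chaperone system were taken from lists by role. Of 15 co-chaperones of Hsp90 and Hsp70, of 8 subunits of the TRiC chaperonin, which folds actin and tubulin, and of 5 other BAG proteins, 0 passed the limits in any of the 5 comparisons. Of all genes tested, 2.61% to 8.42% passed in either direction. A count of 0 in such short lists is near these shares. The median log2 fold change under the combination was -0.12 for the co-chaperones, -0.12 for TRiC and -0.09 for the BAG proteins. All 8 TRiC subunits were below 0. These medians were below that of all genes, 0.05, in the library in which the inducible Hsp70 genes rose.

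Of 8 other J-domain genes, 0 passed under NBT, 2 rose under trametinib and 3 rose under the combination. Of all genes tested, 1.6%, 3.82% and 4.73% rose in the same order. DNAJB4, a close relative of DNAJB1, had 203 reads in the control, 276 under NBT, 487 under trametinib and 932 under the combination, and its log2 fold change with both drugs was 2.13 (1.92 to 2.36). DNAJB2, which directs Hsp70 substrates to the proteasome, had 761, 1042, 1619 and 2294 reads in the same order, and a log2 fold change of 1.53 (1.41 to 1.65). DNAJB5 had 68, 93, 120 and 198 reads, and its log2 fold change of 1.47 (1.07 to 1.90) passed under the combination only. All 3 followed the order control, NBT, trametinib, combination, unlike HSPA1A and HSPA1B, in which NBT stood above trametinib.

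HSPB8, the small heat shock protein that works with BAG3, had the largest rise among the listed cytosolic chaperone genes with at least 100 reads. It had 153 reads in the control, 339 under NBT, 875 under trametinib and 2445 under the combination, rising 2.14-fold (1.76 to 2.61), 5.65-fold (4.77 to 6.77) and 15.3-fold (13.0 to 18.1). Each of the 3 treated libraries was above the control, and the combination was above both single drugs. For every 100 TPM of BAG3 there were 5.84 TPM of HSPB8 in the control, 12.2 under NBT, 45.8 under trametinib and 77.0 under the combination. The departure from additivity of HSPB8 was 0.34 (0.04 to 0.63). Of the 7 other small heat shock genes listed, HSPB3, HSPB7 and CRYAA were not in the table, and HSPB2, HSPB6, HSPB9 and CRYAB had at most 13 reads. CRYAB, the gene of alpha-B crystallin, had 1 read in the control, 0 under NBT, 1 under trametinib and 13 under the combination, a ratio of 12.4 to the control with a counting interval from 1.87 to 529.

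Of 8 other cytosolic Hsp70 and Hsp110 genes, HSPA6 and HSPA12B passed the limits in at least 1 comparison. In a single comparison 2.61% to 8.42% of all genes passed. HSPA6, a human Hsp70 gene that is nearly silent without strong heat stress, had 1 read in the control, 7 under NBT, 1 under trametinib and 15 under the combination, and its ratio of combination to control was 14.4 with a counting interval from 2.21 to 604. At these few reads its level stayed below that of the other inducible Hsp70 genes by a wide margin, at 0.63 TPM under the combination. HSPA12B, a distant Hsp70 relative known from endothelial cells, fell from 61 reads in the control to 28 under NBT and 18 under the combination, and had 45 under trametinib.

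Of 7 other genes that HSF1 is known to control, 3 rose under the combination, 1 under NBT and 1 under trametinib. The shares of all genes that rose were 4.73%, 1.6% and 3.82% in the same order. UBB, SERPINH1, MRPL18 and JMJD6 did not pass in any comparison. Their log2 fold changes under the combination were 0.30, -0.25, -0.10 and -0.10 in this order, and SERPINH1 was at -0.66 under trametinib. SQSTM1, the autophagy receptor p62 that is also a target of other stress factors, had 14676 reads in the control, 34880 under NBT, 30287 under trametinib and 86086 under the combination, and rose in all 3 treated libraries, by 1.2, 1.03 and 2.49 on the log2 scale. ZFAND2A, a proteasome-associated gene, had 473 reads in the control, 975 under NBT, 584 under trametinib and 1367 under the combination, where it rose by 1.47 (1.32 to 1.62). DEDD2 had 851, 1428, 887 and 1931 reads in the same order and rose by 1.12 (1.00 to 1.24) under the combination. Under NBT alone ZFAND2A was at 0.99 (0.83 to 1.16), just under the limit. SQSTM1, ZFAND2A and DEDD2 shared with HSPA1A and HSPA1B the order control, trametinib, NBT and combination. A match of at least 2 heat shock units was found upstream of HSPB8, DNAJB4, ZFAND2A and HSPA6, and none upstream of DNAJB2, DNAJB5, SQSTM1 or DEDD2. Of these genes only HSPA6 had a match of 3 units.

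**Figure D5:**
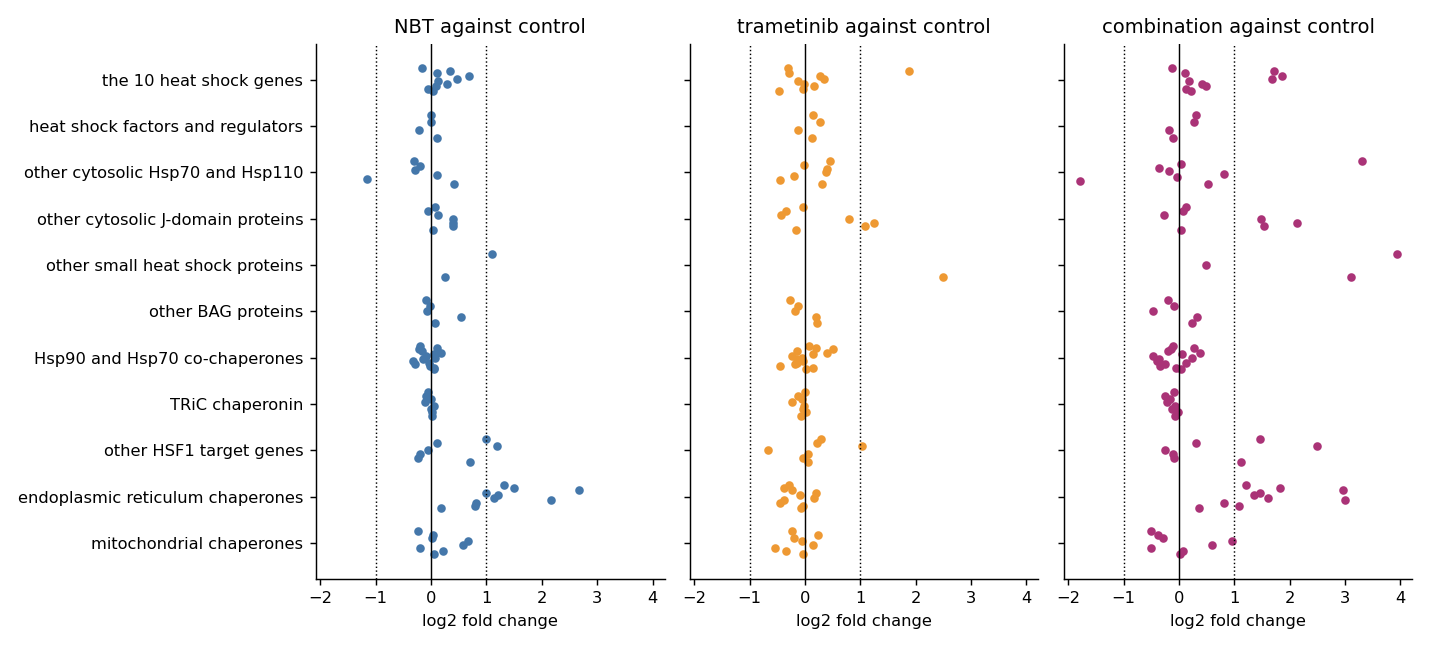
Log2 fold change against the control library (x axis) of every gene with at least 10 reads in 1 of the 2 libraries, by list, with dotted lines at the limits of -1 and 1. Co-chaperones, TRiC subunits and heat shock factors lie within the limits in all 3 panels, and endoplasmic reticulum chaperones lie to the right under NBT and under the combination but not under trametinib.

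Chaperones of other compartments gave other patterns. Of 10 endoplasmic reticulum chaperones, 6 rose under NBT, 0 passed under trametinib and 8 rose under the combination. Of all genes tested, 1.6%, 3.82% and 4.73% rose in the same order. The median log2 fold changes of these chaperones were 1.17, -0.16 and 1.41. HSPA5, the Hsp70 of that compartment, had 9310 reads in the control, 61352 under NBT, 8012 under trametinib and 76120 under the combination. Its log2 fold change was 2.67 (2.64 to 2.70) under NBT and 2.97 (2.94 to 3.0) under the combination. Against NBT the combination was 0.30 higher for HSPA5 (0.28 to 0.31). DNAJB9, a J-domain partner of HSPA5, had 162 reads in the control, 756 under NBT, 125 under trametinib and 1349 under the combination, and against NBT the combination was 0.82 higher (0.69 to 0.95). None of the 10 endoplasmic reticulum genes passed for the combination against NBT, beside 4.36% of all genes. Of 8 mitochondrial chaperones 0 passed against the control, beside 2.61% to 8.42% of all genes. Their median was -0.13 under the combination. HSPA9, the mitochondrial Hsp70, had 8255, 13524, 8045 and 16840 reads and a log2 fold change of 0.97 (0.93 to 1.00) under the combination, and it passed against trametinib, at 1.02 (0.98 to 1.05). A difference between the compartments could not be tested with 1 library a condition.

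Genes with a pattern like that of the inducible pair were looked for among 9976 genes with at least 100 reads in every library. Likeness was the Euclidean distance between the 3 log2 fold changes against the control and those of HSPA1A and HSPA1B summed, 0.61, 0.29 and 1.79. The nearest gene was SRXN1, the sulfiredoxin gene, at a distance of 0.18, with log2 fold changes of 0.71, 0.23 and 1.93. MAGEA2 followed at 0.23, SH3BGRL2 at 0.27, GFPT1, the first enzyme of the hexosamine pathway, at 0.30, and PIGA, which acts in GPI anchor synthesis, at 0.31. No other of the 10 heat shock genes could enter this list, and it was drawn from 4 libraries, so it describes likeness in 3 numbers.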

How the data were processed

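RNA of 4 cultures, 1 library a condition, had been sequenced on the BGISEQ-500 platform. The labels describe TRIzol extraction, depletion of bacterial ribosomal RNA and random priming. The submitters' processing notes name Bowtie2 2.2.5, RSEM 1.2.8 and the build hg38, without their roles. For each gene the authors deposited an expected count (estimated reads, not normalized), which was not whole for 53.9% of genes, a TPM value and an FPKM value. FPKM was not used.

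Estimated counts were rounded and scaled to the library sums, and log2 fold changes were computed after adding 0.5 reads. Genes with at least 1 read in either library were compared in pairs of libraries by the exact binomial test (two-sided, conditional on the summed reads), with Benjamini-Hochberg adjustment over all such genes, at the study's limits of 0.05 and an absolute log2 ratio of 1. The test compares libraries and not conditions. The calling and intervals were tested on simulated libraries with counting error only and known library sizes. That checks the computation, and it cannot speak to variation between cultures or to reads shared between genes. Intervals are Clopper-Pearson intervals at 95%.

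The members and the 17 gene lists were chosen with earlier results of these data known. Named genes were the 10 genes, all listed heat shock factors, up to 4 called genes with the largest change and at least 100 reads from each other list, DUSP6, and the 5 genes nearest in pattern to the summed HSPA1A and HSPA1B. CDKN2A and MTAP, the low-count genes HSPA6, HSPA12B and CRYAB, and UBB, SERPINH1, MRPL18 and JMJD6 were outside that rule. They were named after their values were seen. Cell type markers were named from a list. Of the listed genes, 1 is not reported here. Alternatives used edgeR TMM factors, DESeq2 size factors, TPM with a pseudocount of 0.1, summed transcripts, 5 added reads, at least 10 reads, other log2 limits, and edgeR's exact negative binomial test with a coefficient of variation set to 0.2 or 0.4. Sequences came from RefSeq (GRCh38.p14) and GENCODE v29 (GRCh38), in which all 10 genes matched. Python 3.11.15 (scipy 1.17.1, numpy 2.4.6, pandas 2.3.3, matplotlib 3.10.9) and R 4.3.3 (DESeq2 1.42.0, edgeR 4.0.16) were used.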

Additional observations from a re-analysis of the deposited data

Results flagged for a closer look

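The log2 fold change with a drug had another sign in the presence of the other drug for 7 of the 10 genes, and for 4 of these the counting intervals of both values excluded 0. These 4 are given here, and with 1 library a condition none of the differences was tested. The share of all genes with such a change of sign was not counted, so the count of 7 has no background. The difference between both values of a gene is its departure from additivity, given above. HSPH1 had a log2 fold change with NBT of -0.17 against the control and of 0.17 against trametinib. For HSPB1 the log2 fold change with NBT was 0.34 against the control and -0.16 against trametinib. BAG3 had a log2 fold change with trametinib of -0.47 against the control and of 0.18 against NBT. For HSP90AB1 the log2 fold change with trametinib was -0.13 against the control and 0.060 against NBT. The value against NBT was 0.028 by TMM factors and 0.037 by DESeq2 size factors. Scaled to the library sums, the sizes lay between 0.060 and 0.47, all under the limit of 1.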

How the results depend on the processing

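The number of the 10 genes past the limits was the same with TMM factors, DESeq2 size factors, TPM, summed transcripts, 5 added reads and at least 10 reads. With a log2 limit of 2 it was 0 in all 5 comparisons. With no log2 limit it was 8 under NBT, 8 under trametinib, 10 under the combination, 8 for the combination against NBT and 10 against trametinib. In edgeR's exact test with the coefficient of variation set to 0.2 it stayed at 1 under trametinib and 3 under the combination, but was 0 against NBT and 1 (HSPA1B) against trametinib, and at 0.4 it was 0 in all. The median of the 10 genes moved under NBT to 0.045 by TPM, under trametinib to -0.10 by TMM and -0.089 by DESeq2 size factors, and for the combination against trametinib to 0.41 by TMM. Under the combination it was 0.22 with HSPA1A and HSPA1B summed. Without HSPA1A, HSPA1B and HSPB1, a setting chosen after seeing the data, it was 0.088 under NBT, -0.13 under trametinib and 0.18 under the combination. Of 250 recomputed log2 fold changes of single genes, 201 lay within the counting interval and 3 changed sign: BAG3 under NBT, to -0.03 by TPM, and HSPA8 for the combination against NBT, to -0.02 by TMM and by DESeq2 size factors. Of 50 recomputed departures from additivity 0 changed sign. No paired analysis was possible because the conditions share only 1 replicate number. Scaled to the library sums, DNAJA1 under each single drug, BAG3 under NBT and HSP90AA1 under trametinib could not be told from 0 by counting error. Nor could HSPA8 and HSPH1 for the combination against NBT. HSP90AA1 under trametinib was at -0.093 by TMM and -0.084 by DESeq2 size factors, outside its counting interval.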
